A study of Mus musculus with 24 samples.

Results

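Transcripts of the enzymes and transporters that carry glucose through glycolysis, glycogen and the pyruvate branch point were followed in mouse ventricle on whole-transcript arrays. The 35 listed genes comprise the glycolytic enzymes and lactate dehydrogenases, the bifunctional regulators of phosphofructokinase, subunits and kinases of pyruvate dehydrogenase, the enzymes of glycogen, and transporters of lactate and sugar phosphates. A gene was measured when at least 1 probe set named it alone, and its brightest probe set over the 24 arrays stood for it. This left 31 of the 35 genes among the 18819 genes tested, and Gpi1, Eno1, Pfkfb1 and Pdha1 are not analysed here. The signals of 30 of the 31 lay above the median signal of all genes (5.60 on the log2 scale), and the exception was Slc37a2.

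The arrays fell into 4 groups of 6 hearts each, namely newborn wild type (WT), newborn knockout (KO), young WT and young KO, all untreated and of the strain that the sample annotation gives as C57/Bl6 and the Methods as C57BL/6J. The sample annotation places newborn hearts at postnatal day 1 to 2 and young hearts at day 30, and the Methods give slightly different day ranges. KO mice lacked caspase-7 in all tissues and carried floxed caspase-3 alleles deleted by an Nkx2.5::Cre transgene, which is active in the cardiac lineage, so that other cells of the ventricle kept caspase-3. Each genotype and age held about equal numbers of males and females, and which heart was of which sex is not stated. Genotypes were taken from the annotation and were not checked on the signals. No source states whether hearts of a group came from separate litters, so p-values measure the spread between these hearts. All 8 markers of ventricular cardiomyocytes had a mean signal above the median of all genes, and so had 11 of 13 atrial, 8 of 8 fibroblast and 8 of 10 macrophage markers. The mean of the atrial markers varied from 6.38 to 9.81 among the young arrays. Several arrays stood apart in markers of other cells. The adipocyte markers averaged 7.50 on young WT array 2 and 7.36 on young KO array 2, against 4.65 to 6.17 on the other young arrays. Newborn KO array 6 had the highest mean of skeletal muscle markers (5.19, against 3.58 to 4.07 elsewhere). Calls gained or lost without such an array are given beside the results.

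Glycolysis splits glucose into pyruvate in the cytosol, and several of its steps are served by isoforms that differ between embryonic and adult muscle. Pyruvate then either becomes lactate, which leaves the cell by monocarboxylate transporters, or enters the mitochondrion and is committed to oxidation by pyruvate dehydrogenase, an enzyme that dedicated kinases switch off. Glycogen is the local glucose store, primed by glycogenin, extended by glycogen synthase and broken down by glycogen phosphorylase under control of phosphorylase kinase. The heart is known to turn from carbohydrate towards fatty acids as its main fuel after birth.

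The first question was how these transcripts differed between newborn and young hearts. In WT hearts 16 of 31 genes were higher in young than in newborn hearts, 5 were lower and 10 did not pass the test (limma, adjusted p under 0.05). Over all genes tested 19.2% were higher and 27.9% were lower. In KO hearts 17 were higher, 4 were lower and 10 did not pass, against 34% and 25% of all genes. The median log2 fold change of the 31 genes was 0.24 in WT and 0.33 in KO hearts, where the medians of all genes were 0.00 and 0.10. In both genotypes 20 genes were called in 1 direction, 16 of them higher and 4 lower. The share of all genes called alike in both genotypes was not counted. The 2 comparisons share no array, but they come from a single fit and share its estimate of the spread. The 6 young arrays lay entirely above the 6 newborn arrays for 17 genes and entirely below for 4 in WT hearts, which held for 11.5% and 18.2% of all genes. In KO hearts this held for 15 and 4 genes, against 15.9% and 15.1% of all genes. In this fit only Pgam1 was called in WT alone and only Pdk4 in KO alone. The test of the difference between the age changes of the genotypes called 0 of the 31 genes with limma. Over all genes 0% were called higher and 0.0106% lower. An unadjusted p under 0.05 was met by 3 of the 31 genes and by 12.9% of all genes. The largest estimate of the difference between the age changes was 0.48 on the log2 scale.

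These counts depend on the scale. When each array was centered on its own median, the median change of all genes with age moved to 0.26 in WT and 0.27 in KO hearts, and 24 of the 31 genes were higher and 4 lower in WT. The split of all genes in WT then was 9842 higher and 2989 lower, in place of 3612 higher and 5242 lower. The sizes below are as deposited and are therefore relative to the authors' normalization. In a whole ventricle, fewer cells of a type and less RNA per cell cannot be told apart. Of the 10 measured macrophage markers 9 rose with age in both genotypes, and their mean went from 6.34 to 6.68 on newborn WT arrays to 7.34 to 7.81 on young WT arrays. The fibroblast markers fell for 6 of 8 genes and the atrial markers for 10 of 13 (1 rose) in WT hearts. In KO hearts 4 fibroblast markers fell and 1 rose, 3 atrial markers fell and 1 rose, and 4 of the 6 measured adipocyte markers rose, where 0 passed in WT. The part of these changes in the results below was not tested.

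**Figure D1:**
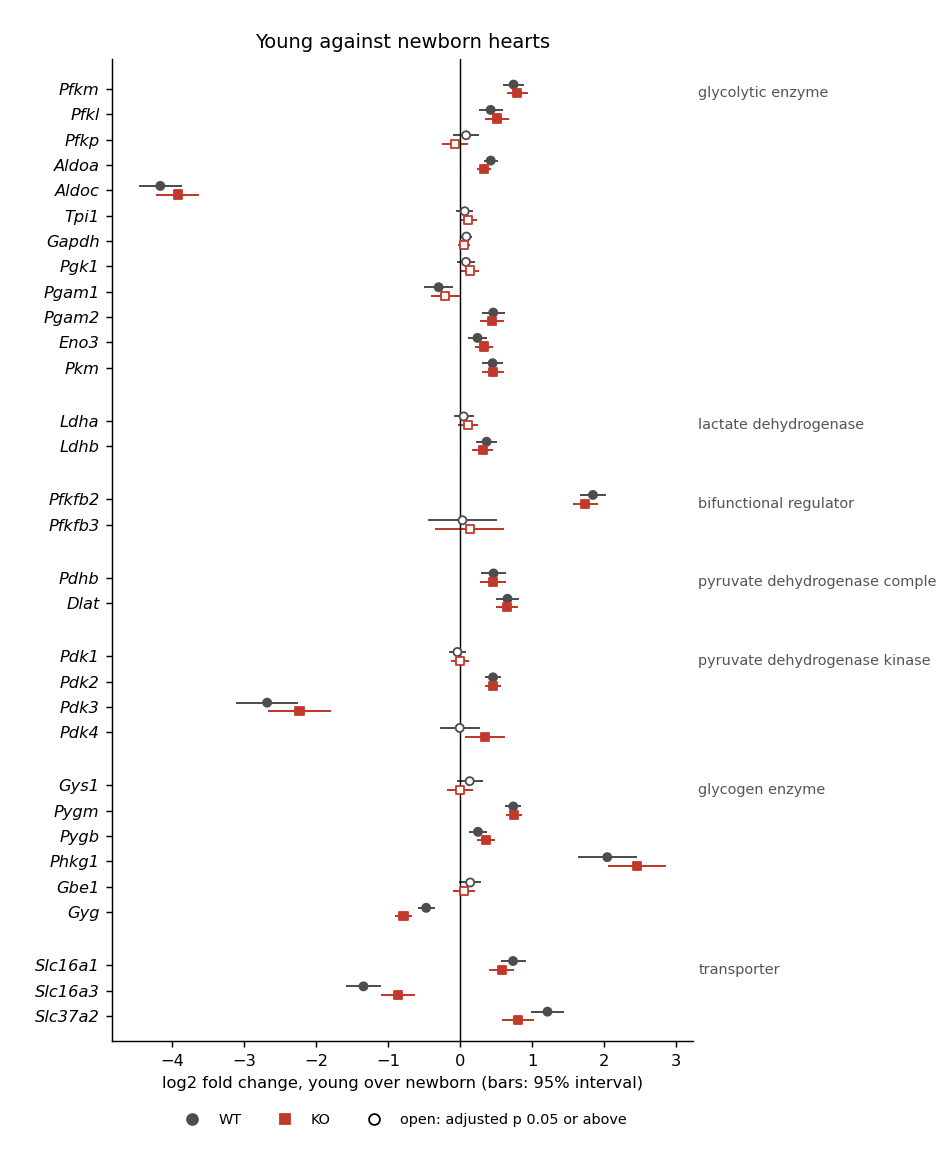
Change of 31 transcripts of glycolysis, glycogen and pyruvate handling from newborn to young hearts. The horizontal axis is the log2 fold change (young over newborn), points are estimates from 6 arrays a group in WT (gray circles) and KO (red squares), bars are 95% intervals, and open symbols did not pass an adjusted p of 0.05. Most genes lie to the right of 0 in both genotypes, while Aldoc, Pdk3, Slc16a3 and Gyg lie to the left.

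To show the promoters of the genes that moved most with age, the 250 bases before the RefSeq start site of 6 genes are printed below (assembly GRCm38.p6), 3 whose transcripts fell and 3 whose transcripts rose. Each runs 5′ to 3′ on the strand of its gene, and where a gene has several starts the first listed is shown. Capitals mark GC boxes (GGGCGG), the core letters of a hypoxia response element (ACGTG, which the E-box CACGTG contains) and MCAT letters (CATTCC), read on both strands.
Aldoc (chr11:78322823-78323072, plus strand): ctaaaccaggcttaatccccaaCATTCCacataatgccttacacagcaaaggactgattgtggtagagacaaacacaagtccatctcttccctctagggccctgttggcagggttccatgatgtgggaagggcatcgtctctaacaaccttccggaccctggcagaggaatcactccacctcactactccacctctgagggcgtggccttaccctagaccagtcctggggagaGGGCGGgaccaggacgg
Pdk3 (chrX:93832151-93832400, minus strand): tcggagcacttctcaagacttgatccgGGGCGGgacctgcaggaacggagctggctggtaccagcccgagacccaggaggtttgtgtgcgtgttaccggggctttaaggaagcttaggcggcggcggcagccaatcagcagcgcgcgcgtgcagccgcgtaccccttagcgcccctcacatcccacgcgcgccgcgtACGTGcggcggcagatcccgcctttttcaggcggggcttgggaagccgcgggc
Slc16a3 (chr11:120948817-120949066, plus strand): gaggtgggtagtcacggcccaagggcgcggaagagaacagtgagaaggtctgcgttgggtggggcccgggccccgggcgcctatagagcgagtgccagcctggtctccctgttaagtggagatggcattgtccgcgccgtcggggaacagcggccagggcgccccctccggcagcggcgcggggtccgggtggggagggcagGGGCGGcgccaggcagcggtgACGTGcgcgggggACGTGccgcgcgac
Pfkfb2 (chr1:130715822-130716071, minus strand): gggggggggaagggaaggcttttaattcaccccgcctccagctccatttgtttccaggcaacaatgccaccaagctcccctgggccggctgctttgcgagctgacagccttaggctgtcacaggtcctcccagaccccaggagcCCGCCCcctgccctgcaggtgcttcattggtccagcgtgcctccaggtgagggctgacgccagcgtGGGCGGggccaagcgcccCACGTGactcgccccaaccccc
Phkg1 (chr5:129879089-129879338, minus strand): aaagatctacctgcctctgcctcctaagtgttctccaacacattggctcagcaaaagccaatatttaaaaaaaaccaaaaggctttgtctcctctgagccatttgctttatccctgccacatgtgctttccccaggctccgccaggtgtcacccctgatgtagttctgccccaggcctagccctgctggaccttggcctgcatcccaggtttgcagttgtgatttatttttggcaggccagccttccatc
Slc37a2 (chr9:37255739-37255988, minus strand): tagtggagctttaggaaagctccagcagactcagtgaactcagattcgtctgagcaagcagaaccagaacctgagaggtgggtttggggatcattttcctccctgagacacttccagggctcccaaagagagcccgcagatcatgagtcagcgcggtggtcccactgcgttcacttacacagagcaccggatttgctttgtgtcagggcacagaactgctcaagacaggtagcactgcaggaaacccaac

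All 31 genes matched the promoter table, with 44 start sites in all because 9 genes have more than 1, and overlapping windows of a gene share sequence. On both strands 6 motifs were searched. The letters ACGTG stood in 19 of the 44 windows (43.2%) of 15 genes, and in 16.6% of the 32851 windows of all genes. They were present for Pdk3, Slc16a3 and Pgam1 among the genes lower in young WT hearts and for 9 genes that were higher, among them Pfkm, Aldoa, Pkm, Pdk2, Pygm and Slc16a1, so they did not follow the direction of change. The E-box CACGTG, a part of these matches, stood in 6 windows (13.6%, against 6.02% of all). The GC box stood in 19 windows (43.2%, against 32.7%), and the median GC content was 59.4% in the 44 windows and 52.4% in all windows. TATAAA was in 0 of the 44 windows and in 12.4% of all. The nuclear receptor hexamer AGGTCA was in 6 windows (13.6%, against 14%), all of them windows of genes that were higher, namely Aldoa, Eno3, Ldhb, Pfkm and Pkm. CATTCC was in 4 windows (9.09%, against 12.6%), of Aldoc, Aldoa, Eno3 and Pdk2. A match of letters is a description and no evidence of binding, and the arrays do not tell which start was used.

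Among the glycolytic enzymes proper, 6 of 12 were higher in young WT hearts and 2 were lower, and in KO hearts 6 were higher and 1 was lower. Aldoc, the aldolase best known from brain, had the largest change. Its log2 signal ran from 7.83 to 8.39 in newborn WT hearts (median 8.27) and from 7.68 to 8.35 in newborn KO hearts (median 8.13). In young hearts it ran from 3.73 to 4.68 in WT (median 3.93) and from 3.89 to 4.55 in KO (median 4.10). Every young array was thus below every newborn array by a wide margin, and the young signals lay under the median signal of all genes. Among the young arrays the means of the skeletal muscle markers, genes not typical of ventricle, ran from 3.58 to 4.07, and young Aldoc lay close to that level. Single markers differed, with young WT means from 2.91 for Myh4 to 5.75 for Tnni2, so their mean is no measure of background. The folds that follow may be lower limits if young Aldoc was near background, which was not tested. The log2 fold change was -4.16 (SE 0.15, 17.9-fold, adjusted p = 4.19e-17) in WT and -3.92 (SE 0.15, 15.1-fold, adjusted p = 1.27e-16) in KO hearts. Aldoa, the muscle aldolase, moved the other way, from 12.09 ± 0.04 to 12.52 ± 0.05 in WT (SD, n = 6 each), a log2 fold change of 0.43 (SE 0.05), and by 0.33 (SE 0.05) in KO hearts.

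Phosphofructokinase makes the committed step of glycolysis, and its 3 subunit genes differed. Pfkm, the muscle subunit, ran from 11.13 to 11.45 in newborn WT hearts (median 11.17) and from 11.93 to 12.07 in young WT hearts (median 11.95). It rose by 0.74 in WT (SE 0.07, adjusted p = 1.78e-09) and by 0.80 in KO hearts (SE 0.07, adjusted p = 6.40e-10), with no overlap between ages. Pfkl, the liver subunit, rose by 0.42 (SE 0.08) and 0.52 (SE 0.08). Pfkp, the platelet subunit, had estimates of 0.08 in WT and -0.07 in KO hearts, with 95% intervals of -0.10 to 0.27 and -0.26 to 0.11, and did not pass in either.

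The phosphoglycerate mutases, which move the phosphate of 3-phosphoglycerate, parted in the same manner. Pgam2, the muscle form, went from 10.59 ± 0.13 to 11.05 ± 0.18 in WT hearts, a rise of 0.46 (SE 0.08, adjusted p = 2.41e-05), and rose by 0.44 (SE 0.08) in KO hearts. Pgam1 fell by 0.30 in WT (SE 0.10, adjusted p = 0.0138), with overlapping groups, and had an estimate of -0.21 in KO hearts (adjusted p = 0.0714). The WT call for Pgam1 was lost at an adjusted p under 0.01 and after median centring. In KO hearts Pgam1 was called lower after quantile normalization (-0.28, adjusted p = 0.0154) and without young WT array 3 (-0.21, adjusted p = 0.0485). Eno3, the muscle enolase, rose by 0.24 in WT (SE 0.06) and 0.33 in KO hearts (SE 0.06). Pkm, the gene of the M type of pyruvate kinase, rose by 0.45 (SE 0.07) and 0.46 (SE 0.07). Its groups of newborn and young hearts did not overlap in either genotype. This signal stands for the gene as a whole and does not tell its transcripts apart.

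The remaining enzymes of the central pathway, Tpi1, Gapdh and Pgk1, did not pass in either genotype. The log2 fold changes in WT hearts were 0.06 for Tpi1 (95% interval -0.05 to 0.18), 0.09 for Gapdh (0.00 to 0.17) and 0.08 for Pgk1 (-0.05 to 0.21). In KO hearts the estimate of Pgk1 was 0.13 (adjusted p = 0.0692), and it was called higher under 6 alternatives. Among them was the fit without young KO array 2 (0.16, adjusted p = 0.0346), an array with high adipocyte markers. Gapdh, which is often taken as a loading control, was at 13.22 ± 0.01 in newborn and 13.30 ± 0.04 in young WT hearts, and every young WT array was above every newborn one. For this gene and Tpi1 the probe set mattered. Gapdh was named alone by 16 probe sets. Their WT age estimates ran from 0.09 for the brightest (mean signal 13.25), used here, to 0.30 for the dimmest (11.99). With the mean of all of them Gapdh was called higher (0.20, adjusted p = 0.000469). Tpi1 was called higher with the mean of its 2 probe sets (0.16, adjusted p = 0.0220). With these means both genes were also called higher in KO hearts (Gapdh 0.205, adjusted p = 0.000479, and Tpi1 0.197, adjusted p = 0.00519). Pfkm, Pfkl and Aldoa had a single probe set each.

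Lactate dehydrogenase converts pyruvate and lactate into each other. Ldhb, its heart form, ran from 11.04 to 11.29 in newborn WT (median 11.17) and from 11.45 to 11.64 in young WT hearts (median 11.53). It rose by 0.37 in WT (SE 0.07, adjusted p = 8.88e-05) and by 0.32 in KO hearts (SE 0.07, adjusted p = 0.000526), in the latter with overlapping groups. Ldha, the muscle form, had estimates of 0.05 (95% interval -0.09 to 0.19) and 0.11 (-0.03 to 0.25) and did not pass.

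**Figure D2:**
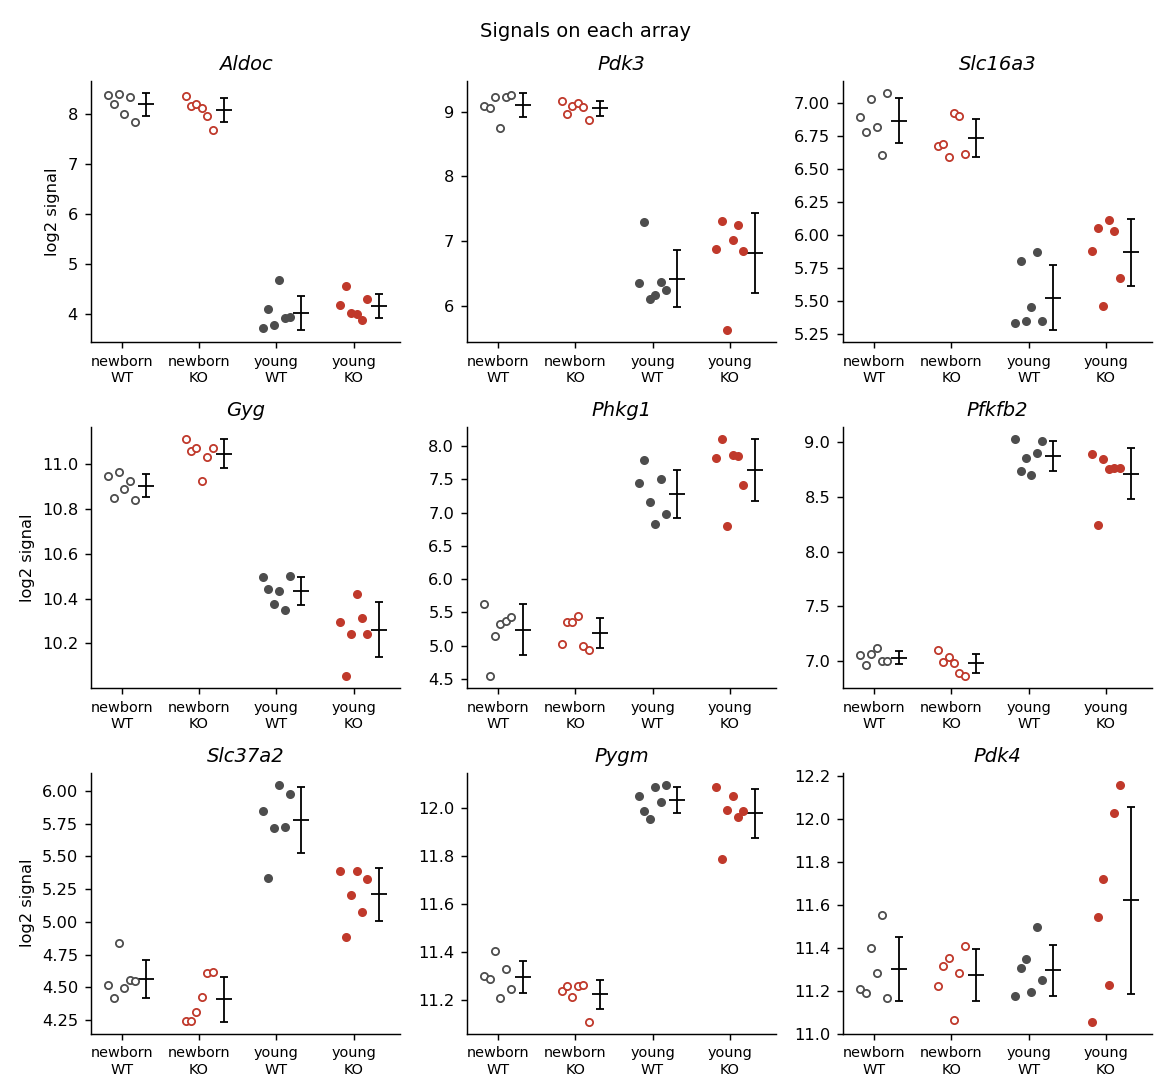
Log2 signals of 9 genes on each of the 24 arrays. Points are single arrays set side by side within a group (open for newborn, filled for young, gray for WT, red for KO), and the horizontal tick with its bar is the mean ± SD of 6 arrays. Aldoc, Pdk3, Slc16a3 and Gyg separate downwards with age and Phkg1, Pfkfb2, Slc37a2 and Pygm upwards, while Pdk4 is spread over a wider range in young KO hearts (11.05 to 12.16) than in any other group.

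Of the regulators of phosphofructokinase, Pfkfb2 and Pfkfb3 make and break fructose 2,6-bisphosphate, the activator of the enzyme. Pfkfb2, the heart form, ran from 6.96 to 7.11 in newborn WT (median 7.03) and from 6.86 to 7.10 in newborn KO hearts (median 6.99). In young hearts it ran from 8.70 to 9.03 in WT (median 8.88) and from 8.25 to 8.90 in KO (median 8.77). The young arrays lay more than 1 log2 unit above the newborn arrays throughout, and the rise was 1.84 in WT (SE 0.09, 3.59-fold, adjusted p = 6.91e-15) and 1.74 in KO hearts (SE 0.09, 3.34-fold, adjusted p = 2.30e-14). Pfkfb3 did not pass, with estimates of 0.03 and 0.13. Its 95% interval reached from -0.45 to 0.52 in WT, because young WT array 2 (6.92) and young KO array 2 (highest of its group, 6.89), the arrays with the highest adipocyte markers, stood far above the other young arrays.

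The measured subunits of the pyruvate dehydrogenase complex both rose. Dlat, the acetyltransferase at its core, ran from 10.15 to 10.52 in newborn WT hearts (median 10.39) and from 10.91 to 11.17 in young WT hearts (median 11.01), a rise of 0.66 (SE 0.07, adjusted p = 5.54e-08), and rose by 0.65 (SE 0.07) in KO hearts. Pdhb, the beta subunit of the decarboxylase, rose by 0.46 in both (SE 0.09 each). No array of one age overlapped with the other age for either gene.

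The 4 kinases that inhibit the complex went in different directions. Pdk3 ran from 8.74 to 9.25 in newborn WT (median 9.15) and from 8.87 to 9.17 in newborn KO hearts (median 9.08). It ran from 6.10 to 7.29 in young WT (median 6.29) and from 5.62 to 7.30 in young KO hearts (median 6.95). It fell by 2.68 in WT (SE 0.21, 6.41-fold, adjusted p = 1.31e-10) and by 2.23 in KO hearts (SE 0.21, 4.69-fold, adjusted p = 3.87e-09). The highest young WT value was again that of array 2, and the lowest young KO value was that of array 3. Pdk2 rose by 0.46 in both genotypes (SE 0.05 each, adjusted p = 1.19e-07 and 1.55e-07). Pdk1 had estimates of -0.04 and 0.00 and did not pass. Pdk4, the kinase induced by fasting and fatty acids, had an estimate of -0.01 in WT (95% interval -0.28 to 0.27) and rose by 0.35 in KO hearts (SE 0.13, adjusted p = 0.0297). This call was lost without newborn KO array 4 (0.0675) and without the young KO arrays 3 (0.0552), 5 (0.0874) or 6 (0.0985), and with only the 12 KO arrays (0.0821).

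Among the genes of glycogen, Phkg1 encodes the catalytic subunit of phosphorylase kinase in muscle and had the largest rise of all 31 genes. It ran from 4.54 to 5.63 in newborn WT (median 5.35) and from 4.94 to 5.45 in newborn KO hearts (median 5.19). In young hearts it ran from 6.83 to 7.79 in WT (median 7.30) and from 6.80 to 8.11 in KO (median 7.83). No arrays overlapped between ages, and the rise was 2.04 in WT (SE 0.20, 4.12-fold, adjusted p = 4.32e-09) and 2.46 in KO hearts (SE 0.20, 5.49-fold, adjusted p = 2.17e-10). Its newborn means (5.24 in WT and 5.19 in KO) lay under the median signal of all genes (5.60). Whether they were near enough to background to shrink these folds was not tested.

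Glycogen phosphorylase releases glucose units from the store. Pygm, its muscle form, ran from 11.21 to 11.40 in newborn WT (median 11.29) and from 11.96 to 12.10 in young WT hearts (median 12.04), and rose by 0.74 (SE 0.05, adjusted p = 3.26e-11) and by 0.75 in KO hearts (SE 0.05, adjusted p = 2.68e-11). Pygb, the brain form, rose by 0.25 (SE 0.06, adjusted p = 0.00150) and 0.36 (SE 0.06, adjusted p = 2.89e-05). The WT call of Pygb was lost after a new quantile normalization (0.14, adjusted p = 0.0591). On the side of synthesis, Gyg, the glycogenin that primes a new glycogen particle, fell. It ran from 10.84 to 10.96 in newborn WT (median 10.91) and from 10.35 to 10.50 in young WT hearts (median 10.44), and fell by 0.47 in WT (SE 0.06, adjusted p = 1.29e-07) and by 0.79 in KO hearts (SE 0.06, adjusted p = 2.66e-11). Gys1, the muscle glycogen synthase, had estimates of 0.13 and 0.00, and Gbe1, the branching enzyme, of 0.14 and 0.06, and neither passed.

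All 3 transporters changed with age. Slc16a1 and Slc16a3 encode the monocarboxylate transporters MCT1 and MCT4, which carry lactate and pyruvate across the cell membrane. Slc16a1 ran from 9.46 to 10.00 in newborn WT (median 9.89) and from 10.52 to 10.63 in young WT hearts (median 10.56), and rose by 0.74 (SE 0.08, adjusted p = 6.58e-08) and by 0.58 in KO hearts (SE 0.08, adjusted p = 2.81e-06). Slc16a3 went the other way. It ran from 6.60 to 7.08 in newborn WT (median 6.86) and from 6.59 to 6.93 in newborn KO hearts (median 6.68), and from 5.33 to 5.87 in young WT (median 5.40) and 5.46 to 6.12 in young KO hearts (median 5.95). It fell by 1.34 in WT (SE 0.12, 2.53-fold, adjusted p = 7.20e-10) and by 0.86 in KO hearts (SE 0.12, 1.82-fold, adjusted p = 1.05e-06). Slc37a2, a sugar phosphate exchanger of the endoplasmic reticulum with known expression in macrophages, rose by 1.21 (SE 0.11, adjusted p = 1.48e-09) in WT and 0.80 in KO hearts (SE 0.11, adjusted p = 1.32e-06), in both beside the rise of the macrophage markers. The newborn means of Slc37a2 (4.56 in WT and 4.41 in KO) lay under the median signal of all genes. Whether background shrank its rises was not tested.

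Because several steps have isoforms that moved apart, the difference between the log2 signals of 2 isoforms was taken on each array. Probe sets differ in brightness, so only the shift of this difference between groups was read, which does not depend on how whole arrays are centered, and it was described without a test. The difference of Aldoa over Aldoc rose by 4.59 with age in WT (24.1-fold) and by 4.25 in KO hearts (19.0-fold). These folds too may be lower limits, if the low young signals of Aldoc were near background. Pdk2 over Pdk3 shifted 8.79-fold in WT and 6.43-fold in KO hearts, Pdk4 over Pdk3 6.38-fold and 5.97-fold, and Slc16a1 over Slc16a3 4.22-fold and 2.72-fold. These 4 shifts were wider than the spread among arrays, with no overlap between ages.

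The other 6 pairs shifted towards the form named first as well. Pairs were taken because isoforms had moved apart in these data, and the order within a pair is a choice. The common direction is therefore no separate result. In WT and KO hearts the shift, on the log2 scale, was 1.81 and 1.61 for Pfkfb2 over Pfkfb3, 0.76 and 0.65 for Pgam2 over Pgam1, 0.66 and 0.87 for Pfkm over Pfkp, 0.49 and 0.40 for Pygm over Pygb, 0.32 and 0.28 for Pfkm over Pfkl, and 0.32 and 0.20 for Ldhb over Ldha. In WT hearts the ages did not overlap for any of these pairs, and in KO hearts they overlapped for Pfkfb2 over Pfkfb3 and Pfkm over Pfkl. Between the genotypes all 10 pairs overlapped at both ages.

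**Figure D3:**
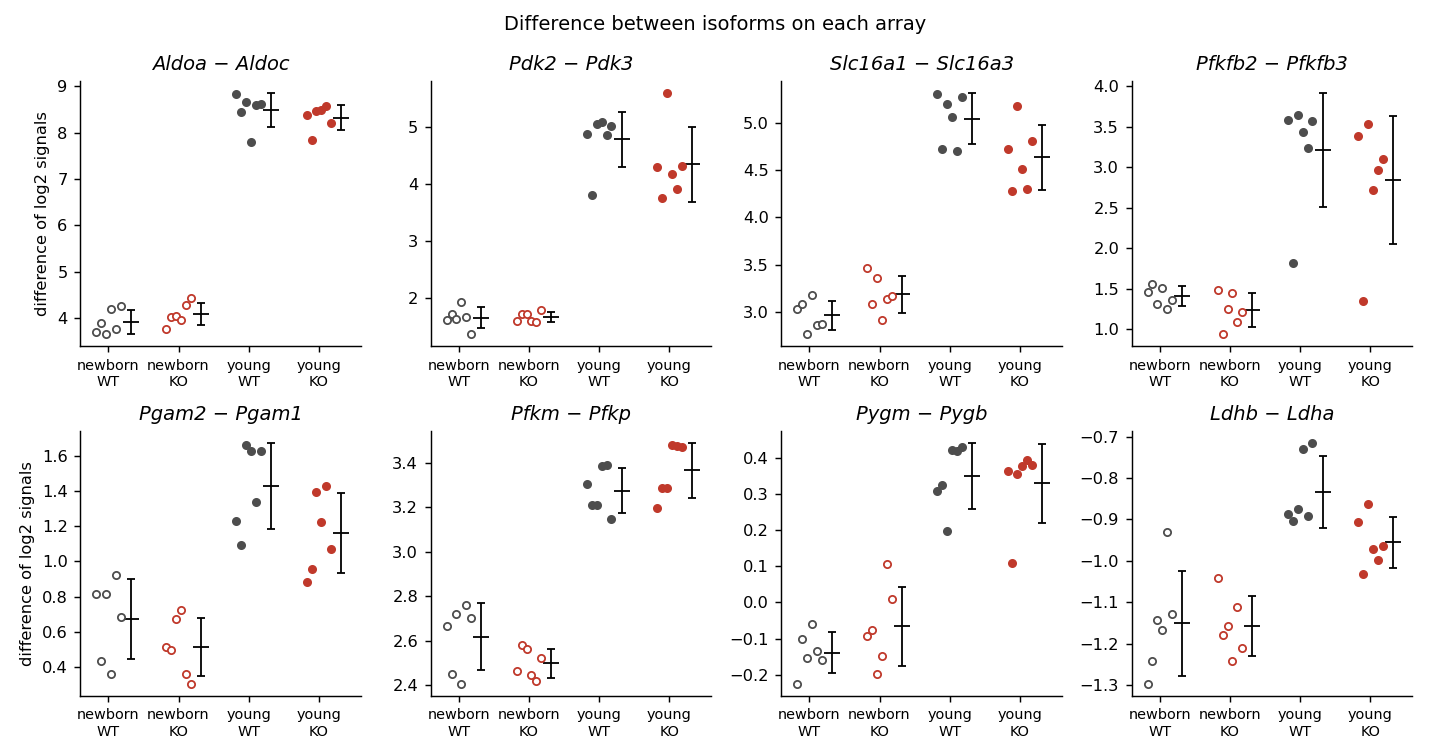
Difference between the log2 signals of 2 isoforms on each array, for 8 pairs. Points are single arrays (open for newborn, filled for young, gray for WT, red for KO) and ticks with bars are the mean ± SD of 6 arrays. In every panel the young arrays lie higher than the newborn arrays of the same genotype, with the exception of young KO array 2 for Pfkfb2 and Pfkfb3 (the lone low point), which falls into the newborn range.

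Genes of the wider pathway also both rose and fell with age. Of 53 other measured genes of glucose, glycogen and pyruvate metabolism, 28 were higher, 11 were lower and 14 did not pass in WT hearts, and the counts in KO hearts were 30, 10 and 13. The shares of all genes were 19.2% higher and 27.9% lower in WT, and 34% and 25% in KO hearts. The largest rises in WT were Ldhd, a mitochondrial D-lactate dehydrogenase (2.54, SE 0.09), Gpd1, the cytosolic glycerol phosphate dehydrogenase (2.04, SE 0.22), Hk2, the insulin-responsive hexokinase (1.93, SE 0.10), Fbp2, the muscle fructose bisphosphatase (1.77, SE 0.16), and Slc2a4, the insulin-responsive glucose transporter GLUT4 (1.57, SE 0.09). The largest falls were Pygl, the liver glycogen phosphorylase (-1.91, SE 0.22), Stbd1, a glycogen-binding protein (-1.54, SE 0.13), Pck2, the mitochondrial phosphoenolpyruvate carboxykinase (-1.16, SE 0.09), Phka2, the liver regulatory subunit of phosphorylase kinase (-0.84, SE 0.09), and Slc37a3, a relative of Slc37a2 (-0.70, SE 0.10). All 10 had the same direction and were also called in KO hearts.

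At the pyruvate branch point several neighbors of Dlat and Pdhb also rose in both genotypes. The increase in WT hearts was 1.09 for Mpc1, a subunit of the mitochondrial pyruvate carrier (SE 0.07), 1.00 for Pdhx, the binding subunit of the complex (SE 0.10), 0.42 for Dld, its dehydrogenase (SE 0.08), and 1.52 for Pdp2, a phosphatase that reactivates it (SE 0.13). Pdp1, another such phosphatase, changed little in WT hearts, from a mean of 9.50 in newborn to 9.59 in young hearts. At glucose entry Slc2a1, the fetal transporter GLUT1, fell by 0.62 in WT and by 0.83 in KO hearts (SE 0.09 each), while Hk1 did not pass.

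The second question was whether loss of the executioner caspases altered these transcripts. In newborn hearts 0 of 31 genes passed limma's test, as 0% of all genes did in either direction, and 0.452 was the lowest adjusted p. The count over all genes depended on the newborn arrays numbered 4. Without both of them 117 genes were higher and 365 lower in KO hearts, without WT array 4 these were 12 and 61, and without KO array 4 they were 14 and 35, while the count among the 31 genes stayed at 0 in each case. There were 3 genes at an unadjusted p under 0.05, Pgk1 (-0.13) and Pygb (-0.15) with negative and Gyg (0.14) with positive estimates, and 9.07% of all genes met this rule. The median difference was -0.07 over the 31 genes and -0.05 over all genes, with 23 negative and 8 positive estimates. The 95% interval stayed within 0.5 log2 units (1.41-fold) of 0 for 30 of the 31 genes, and the exception was Pfkfb3 (-0.37 to 0.60). No gene had its 6 KO arrays all on 1 side of its 6 WT arrays, which held for 0.0531% of all genes upwards and 0.436% downwards.

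In young hearts 1 of 31 genes was called in KO against WT, and it was lower, where 0.67% of all genes were higher and 0.351% lower. This was Slc37a2. It ran from 5.34 to 6.05 in WT (median 5.79) and from 4.88 to 5.39 in KO hearts (median 5.26), so that only WT array 2 fell into the range of the KO arrays. The log2 fold change was -0.57 (SE 0.11, 95% interval -0.79 to -0.34, adjusted p = 0.0118). The call held in all 24 fits that left out a single array and was lost with only the 12 young arrays (adjusted p = 0.0978). With the mean of 12 atrial markers added to that fit the estimate was -0.36 (adjusted p = 0.405). The atrial markers averaged 6.38 to 9.30 on young WT and 6.97 to 9.81 on young KO arrays. None of the 10 macrophage markers passed the test between the genotypes at this age. Their estimates were all positive, from 0.04 for Cd68 to 0.34 for C1qb (adjusted p = 0.0941), opposite in sign to that of Slc37a2, and their mean ran from 7.34 to 7.81 in WT and from 7.51 to 8.04 in KO hearts. Over the 24 arrays the mean signal of Slc37a2 lay below the median of all genes.

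The other young genotype estimates were smaller or less certain. An unadjusted p under 0.05 was met by 6 genes including Slc37a2, against 15% of all genes. Estimates were positive for Slc16a3 (0.34, SE 0.12, adjusted p = 0.147) and Pdk4 (0.33, SE 0.13, adjusted p = 0.238), and negative for Gyg (-0.17, SE 0.06, adjusted p = 0.133), Gys1 (-0.19, SE 0.09, adjusted p = 0.311) and Ldhb (-0.15, SE 0.07, adjusted p = 0.309). The groups overlapped for each of the 31 genes, whereas 0.42% of all genes had every KO array above and 0.404% every KO array below the WT arrays. Pdk3 had a positive estimate of 0.40 (SE 0.21, adjusted p = 0.376). Without young KO array 3, which had the lowest mean of atrial markers in its group (6.97), Pdk3 and Slc16a3 were called higher in KO hearts (0.64, adjusted p = 0.0184, and 0.43, adjusted p = 0.0294), beside Slc37a2. Without that array 648 of all genes were higher and 158 lower, in place of 126 and 66. In the fit of the 12 young arrays with the atrial markers, the estimates were -0.21 for Pdk3 (SE 0.15, adjusted p = 0.743), 0.06 for Slc16a3 (SE 0.10, adjusted p = 0.900), -0.12 for Phkg1 (SE 0.13, adjusted p = 0.863, against 0.36 without them), -0.06 for Gys1 and -0.05 for Ldhb. Those of Pdk4 (0.31) and Gyg (-0.15) moved less. The estimate of Pfkfb3 went from 0.214 to -0.415 in that fit (SE 0.21, adjusted p = 0.613).

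For most of the pathway the young interval was narrow. It stayed within 0.5 log2 units of 0 for 25 of the 31 genes, including all 12 glycolytic enzymes and both lactate dehydrogenases, and the 6 exceptions were Pfkfb3, Pdk3, Pdk4, Phkg1, Slc16a3 and Slc37a2. For Gapdh the estimate was -0.03 (-0.12 to 0.05), for Pfkm -0.01 (-0.15 to 0.13) and for Pkm -0.14 (-0.29 to 0.01). The median over the 31 genes was -0.04 and that over all genes 0.03.

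**Figure D4:**
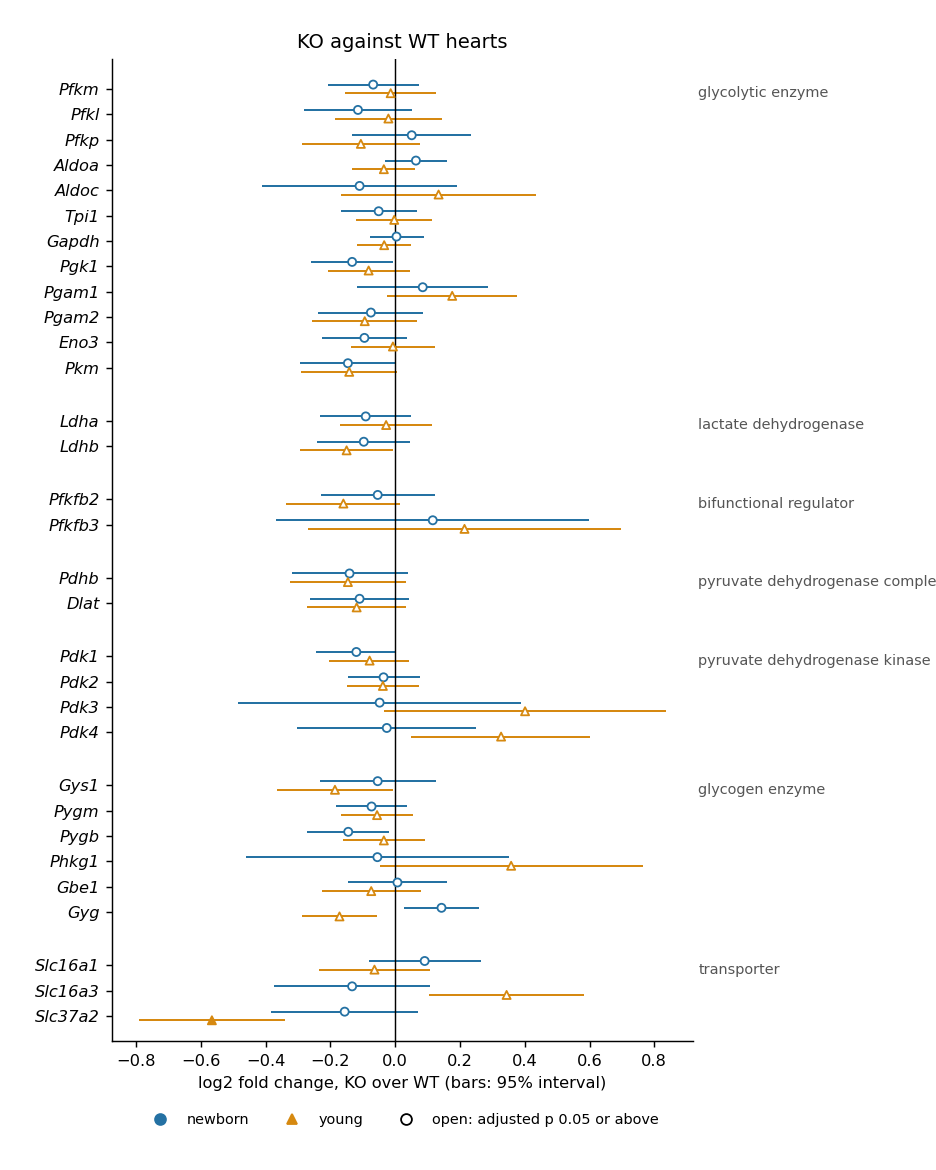
Difference of 31 transcripts between KO and WT hearts. The horizontal axis is the log2 fold change (KO over WT) in newborn (blue circles) and young hearts (orange triangles), bars are 95% intervals from 6 arrays a group, and open symbols did not pass an adjusted p of 0.05. The only filled symbol is Slc37a2 in young hearts (-0.57), and the widest bars belong to Pfkfb3, Pdk3, Phkg1 and Aldoc.

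The third question was whether the effect of the deficiency differed between the ages. The test of this difference called 0 of the 31 genes. Gyg had the smallest p, with an estimate of 0.14 in newborn and -0.17 in young hearts, a difference of -0.32 (SE 0.08, adjusted p = 0.171). Its newborn signals were 10.84 to 10.96 in WT and 10.93 to 11.12 in KO, and its young signals 10.35 to 10.50 in WT and 10.05 to 10.42 in KO. The KO arrays thus lay mostly above WT in newborn and mostly below WT in young hearts, with overlap at both ages. Slc16a3 (0.48, SE 0.17, adjusted p = 0.277) and Slc37a2 (-0.41, SE 0.16, adjusted p = 0.303) were the other genes at an unadjusted p under 0.05, which 12.9% of all genes met.

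Of the 53 other genes of the pathway 0 were called by limma between the genotypes in newborn or young hearts or in the difference, with 11, 9 and 6 genes at an unadjusted p under 0.05, a rule that 9.07%, 15% and 12.9% of all genes met. The newborn count changed with the arrays numbered 4. Without both of them 4 of the 53 were called in newborn KO hearts, in the fit that called 117 of all genes higher and 365 lower. Slc2a4 (-0.54, adjusted p = 0.00203) and Pdp1, a pyruvate dehydrogenase phosphatase (-0.34, adjusted p = 0.00801), were lower, and Ppp1r3c, a glycogen-targeting subunit of protein phosphatase (0.48, adjusted p = 0.0164), and Stbd1 (0.50, adjusted p = 0.0321) were higher. With all arrays their adjusted p-values were 0.101 to 0.493. That of Slc2a4, 0.101, equals the lowest of all genes tested. Its 6 newborn KO arrays (8.52 to 9.07) all lay below the newborn WT arrays (9.13 to 9.43), which held for 0.436% of all genes. With array weights on all arrays Slc2a4 was called lower (-0.44, adjusted p = 0.0122), in a fit that called 7 of all genes higher and 24 lower.

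The young count changed with 2 other arrays. Without young WT array 2, which had the highest adipocyte markers, 3 of the 53 were called in young KO hearts, in a fit that called 621 of all genes higher and 163 lower. These were Emb, an ancillary protein of monocarboxylate transporters (1.28, adjusted p = 0.0211), Pck1, the cytosolic phosphoenolpyruvate carboxykinase (1.85, adjusted p = 0.0399, against 1.00 with all arrays), and Pdpr, a regulatory subunit of pyruvate dehydrogenase phosphatase (-0.28, adjusted p = 0.0493). Pck1 ran from 3.18 to 8.72 on young WT and from 3.77 to 8.15 on young KO arrays. Without young KO array 3, Emb (1.24, adjusted p = 0.0285), Pdpr (-0.28, adjusted p = 0.0466) and Hk2 (-0.36, adjusted p = 0.0340) were called.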

How the data were processed

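Ventricle RNA of 24 mouse hearts was hybridized to 1-color Affymetrix whole-transcript arrays. The authors deposited log2 signals, summarized from the probes by RMA after background correction and equalization of the arrays. Per the submitters' notes this was done in R version 2.15 with oligo version 1.22 and limma version 3.14. Depth has no meaning for arrays, and their number limits the precision. Probe sets were named by the platform annotation. Of 35017 probe sets 21118 named 1 gene, 1735 several and 12164 none. The 18819 genes were each represented by the brightest of their probe sets. Groups came from the sample annotation, and 0 pairs of arrays held identical values.

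All 24 arrays entered a single limma model (version 3.58.1, R version 4.3.3) of 4 group means with 20 residual degrees of freedom, and p-values were adjusted over all genes by the Benjamini-Hochberg method. The procedure was tested on simulated data. Members, lists, marker genes and the rule for naming genes (all members, and for the wider pathway the 5 largest rises and falls with age in WT) were chosen with earlier results of these data known. Mpc1, Pdhx, Dld, Pdp1, Pdp2, Slc2a1 and Hk1 were named for age outside this rule, also with earlier results known. Genes named from 5 or fewer calls under an alternative were chosen after their values were seen. Alternatives were a signal filter at the 30th percentile, an adjusted p under 0.01, a 1.5-fold minimum, centring on medians, quantile normalization, a variance trend, array weights, a replicate block, the mean of all probe sets, only the arrays of a comparison, atrial markers as a covariate, and leaving out arrays. Leaving out the 2 young arrays numbered 2 was added after the data were seen. No batch or scan date was used, since the sources used here give none, and sex was not modeled.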

Additional observations from a re-analysis of the deposited data

Results flagged for a closer look

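In 14 of 124 group and gene combinations, the highest or lowest of 6 arrays stood apart by more than Dixon's critical value for 6 values, where chance flags about 1 in 20 groups. Several belong to the arrays that also stood apart in markers of other cells. On young WT array 2, Pfkfb3 was at 6.92 (next array 5.66) and Pdk3 at 7.29 (next 6.37). On young KO array 2, Pfkfb2 was at 8.25 (next 8.76) and Pdk2 at 11.06 (next 11.16). These 2 arrays had adipocyte marker means of 7.50 and 7.36. On newborn KO array 6, which had the highest skeletal muscle markers, Pkm was at 10.78 (next 11.04) and Pygm at 11.11 (next 11.21). On young KO array 3, with the lowest atrial markers among young KO arrays (6.97), Pdk3 was at 5.62 (next 6.84). The part of the adipocyte and skeletal muscle markers in these values was not tested.

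The other values that stood apart lay on other arrays. On newborn WT array 4, Aldoa was high at 12.17 (next 12.09) and Gapdh low at 13.20 (next 13.22). On young WT array 3, Gapdh was low at 13.24 (next 13.30) and Pfkl low at 9.15 (next 9.25). Pfkm was high at 12.07 on young WT array 1 (next 11.97). Slc16a1 was low at 9.46 on newborn WT array 5 (next 9.80), and Slc37a2 was high at 4.84 on newborn WT array 3 (next 4.55).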

How the results depend on the processing

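Of 43 called results of the 31 genes, 20 kept their call under every alternative run, and the alternatives that most often ended a call were a fold change of at least 1.5 and, for Pdk4 in KO hearts, 9 settings in all. With a fold change of at least 1.5 the age calls numbered 10 in WT and 10 in KO hearts among the 31 genes, and 25 and 20 among the 53 other genes of the pathway. The 1 young genotype call, Slc37a2, became 0 with an adjusted p under 0.01, the 1.5-fold minimum, only the young arrays, or the atrial markers as a covariate. Among the other genes, newborn KO against WT gave 1 call with array weights and 4 without the 2 newborn arrays numbered 4, and the difference between ages gave 1 without those 2 arrays. Reversals of sign were followed for the 57 results with an unadjusted p under 0.05 in the limma fit of all arrays. Among these the 1 reversal was Gapdh in WT, from 0.087 to -0.022 after quantile normalization, and neither value passed. Other estimates also changed sign. With the atrial markers as a covariate, young KO against WT went from 0.40 to -0.21 for Pdk3, among other genes. It went from 0.358 to -0.115 for Phkg1 and from 0.214 to -0.415 for Pfkfb3. The cause of these changes was not tested, other than that a stricter threshold calls fewer genes.

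Leaving out each array in turn gave 21 to 21 age calls in WT and 20 to 22 in KO hearts, 1 to 3 young genotype calls (3 without young KO array 3), and 0 to 0 newborn and difference calls. For the other genes the ranges were 36 to 40 and 36 to 42 with age, 0 to 2 in newborn KO against WT (2 without newborn WT array 4, 1 without newborn KO array 4), 0 to 3 in young KO against WT (3 without young WT array 2, 3 without young KO array 3) and 0 to 0 for the difference. Leaving out both young arrays numbered 2 changed none of these counts by over 1.5 times. Replicate numbers are shared between groups, but they were not taken as pairs, since the correlations of same-numbered arrays ran from -0.44 to 0.64 and in no 2 groups exceeded 0.1 for all 6 numbers (5 of 6 between newborn KO and young WT). With a replicate block the calls were 21 in WT and 21 in KO hearts with age, 1 in young and 0 in newborn KO against WT, and 0 for the difference. The fit with only the arrays of a comparison was not run for the difference between ages, which uses all 24.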
